A study of Mus musculus with 37 samples.

Results

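Neonatal rat ventricular myocytes (NRVMs) that had received AMP conditioned medium were compared with NRVMs that had received vehicle conditioned medium. The members were chosen by their labels and are the 3 AMP and the 3 vehicle libraries, 6 of the 15 NRVM libraries and of the 37 samples in the series. The series asks how heart muscle cells affect the nonmyocytes around them after injury, and what part is played by ENPP1, an ectonucleotidase of nonmyocytes that cleaves extracellular ATP to AMP and pyrophosphate. All 6 libraries came from wild type Sprague-Dawley cells that were sparsely seeded in high glucose DMEM with serum for 24 h. The cells were then held for 24 h in serum-free medium with insulin, transferrin and selenium and finally kept for 24 h in the conditioned medium. Per the study's text, conditioned medium (MCndM) is the medium collected from NRVMs after 24 h with an additive, here AMP or its vehicle, so both groups received medium that myocytes had already used. The organism field of the labels gives mouse for these libraries, while their cell type, strain and gene symbols are those of rat. Total RNA was sequenced, and the values are read counts per gene. Cultures of this kind hold nonmyocytes besides myocytes, and nothing in the labels says whether the 3 replicates were separate isolations.

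AMP outside a cell can be dephosphorylated by CD73 (Nt5e) to adenosine, which acts on adenosine receptors, enters cells through equilibrative transporters such as Slc29a1, and is there phosphorylated again by adenosine kinase or deaminated. Adenine, another breakdown product, is salvaged to AMP by Aprt with PRPP, a sugar phosphate that the synthesis of pyrimidine nucleotides also uses. Shortage of nucleotides and damage to DNA are known to activate the transcription factor p53, which drives Cdkn1a, the inhibitor of cyclin-dependent kinases, and Mdm2, the ligase that degrades p53 itself.

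Total counts were 14382327 to 15615626 in the AMP libraries and 13481389 to 14937081 in the vehicle libraries, and levels are given below as CPM, the count of a gene relative to the TMM-scaled library size. Cardiomyocyte markers stood high in all 6 libraries, with 179420 to 217913 counts of the slow myosin Myh7 and 69680 to 83323 counts of the cardiac troponin Tnnt2. Of the 11 cardiomyocyte markers tested 3 were higher and 3 lower in AMP medium, and their summed level was 44010 to 47030 CPM in AMP and 45930 to 48460 CPM in vehicle libraries. Without AMP replicate 3, described in the next paragraph, these counts were 3 and 3. Fibroblast markers were present too (Col1a1, 109291 to 243720 counts). The macrophage markers C1qb and C1qc had no count in any of the 6 libraries, and the whole macrophage list is described with the other cell types below. Reads of the mitochondrial genome made up 10.46% to 11.12% of counts in AMP and 8.142% to 8.349% in vehicle libraries, and ribosomal protein genes 1.34% to 1.405% against 1.938% to 1.996%.

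The first principal component, with 60.4% of the variance of the 15 libraries, placed the AMP libraries at 21.2 to 27.5 and the vehicle libraries at -44.2 to -41.1. AMP replicate 3 stood apart from the other two on the third component (4.70% of the variance), at 28.4 against 1.98 and 2.44. Some markers of endothelial cells and pericytes, not all, were high in this library. The vascular cadherin Cdh5 had 103, 182 and 437 counts in AMP replicates 1, 2 and 3, the receptor Tie1 had 168, 184 and 588, the tight junction gene Cldn5 had 1, 0 and 37, and the pericyte gene Rgs5 had 12, 11 and 83. The endothelial receptor Kdr (165, 157 and 125 counts) and the clotting factor carrier Vwf (21, 19 and 12) were lowest there. The fibroblast marker Lum had 501, 553 and 1222 counts and was not called with this library (log2 fold change 0.95, adjusted p = 0.11) or without it (0.39, adjusted p = 0.48). The counts of marker lists are given with and without this library.

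**Figure D1:**
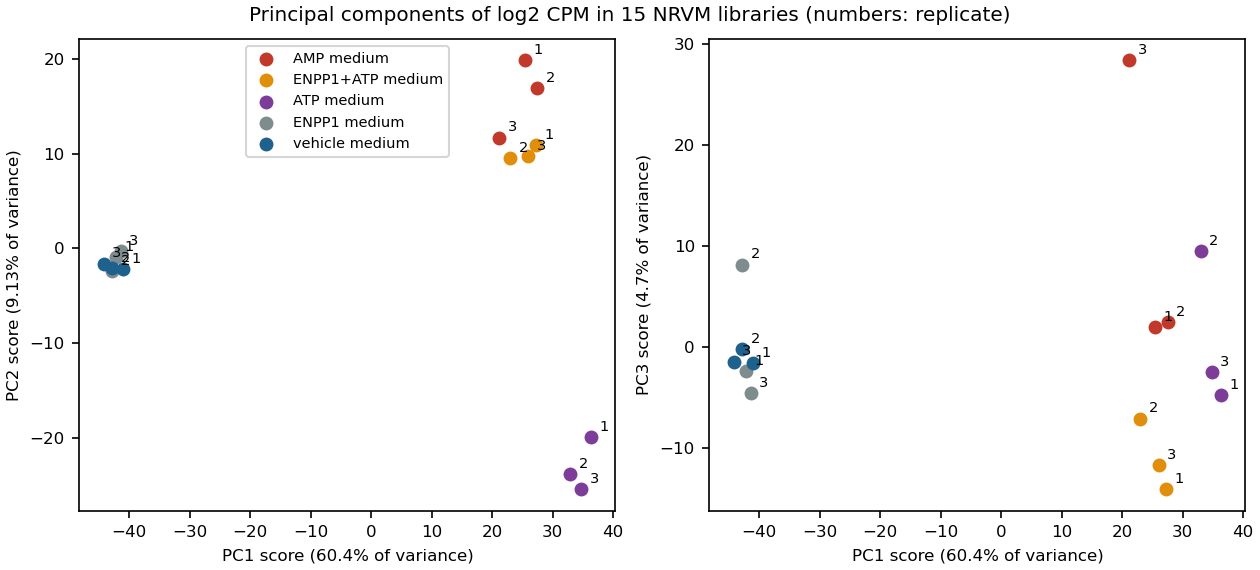
Principal components of log2 CPM over all genes tested, PC1 against PC2 (left) and PC1 against PC3 (right), each point a library and each colour a medium, with the replicate number beside it. AMP libraries lie at 21.2 to 27.5 on PC1 and vehicle libraries at -44.2 to -41.1, and AMP replicate 3 lies at 28.4 on PC3.

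Of 13461 genes tested with edgeR's quasi-likelihood test, 3931 were higher and 3772 lower in AMP medium at an adjusted p under 0.05, that is 29.2% and 28.0%, or 57.2% together. A change of at least 2-fold was met by 544 higher (4.04%) and 761 lower genes (5.65%). The 3 AMP values did not overlap the 3 vehicle values in 61.9% of genes. Without AMP replicate 3 there were 7435 calls in all against 7703, and 7121 were shared. Among lists, without this library p53 targets were 23 higher and 5 lower, ATF4 targets 1 and 35, and matrix genes 3 and 48, beside the counts with it below. The shares of 29.2% and 28.0% are the background for the gene lists. A list is described by how many of its tested members were called each way and by its median log2 fold change, beside a median of 0.0088 over all genes tested.

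The largest rises by the naming rule (genes called without overlap whose log2 CPM averaged 2 or more) began with Pinlyp, a phospholipase inhibitor domain gene, at 9.81, 9.58 and 9.39 CPM in AMP replicates 1 to 3 and 0.344, 0.620 and 0.532 CPM in vehicle replicates 1 to 3. Its log2 fold change was 4.25 ± 0.23 (SE, n = 3 per group, edgeR adjusted p = 2.9e-20). Hapln3, a link protein of hyaluronan, rose by 4.06 and the cadherin Cdh17 by 3.44 on the log2 scale. The others were AABR07053509.2 (2.97), Klhdc7a (2.88), the interleukin-33 receptor Il1rl1 (2.64), the phosphatase Ptprv (2.62), the metalloprotease Adam8 (2.54), the calcium and integrin binding gene Cib2 (2.32) and the thin filament capping gene Tmod4 (2.25). None of these 10 genes exceeded 5.37 CPM in any vehicle library. The ligand of Il1rl1, Il33, rose as well (log2 fold change 1.27).

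Among the 10 largest falls by the same rule, the ephrin receptor Epha8 stood at 2.30, 1.19 and 1.47 CPM in AMP and 13.8, 17.8 and 16.7 CPM in vehicle libraries (log2 fold change -3.27 ± 0.18, adjusted p = 1.2e-19). The netrin receptor Unc5c changed by -3.08 and the slit receptor Robo2 by -2.61. The potassium channel Kcnq5 (-2.99), the glypican Gpc6 (-2.94), Tlcd3b (-2.76), the pentraxin Ptx3 (-2.76) and the bradykinin receptor Bdkrb2 (-2.55) also fell. The glutamine transporter Slc1a5 fell from 60.6, 65.2 and 63.0 CPM in vehicle to 9.34, 10.5 and 11.7 CPM in AMP libraries. Tcf21, a transcription factor of fibroblasts and epicardium, fell from 50.0, 59.9 and 52.3 CPM to 9.28, 9.38 and 9.96 CPM. The 3 values of each group lay apart for all 20 of these genes, as the rule required.

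**Figure D2:**
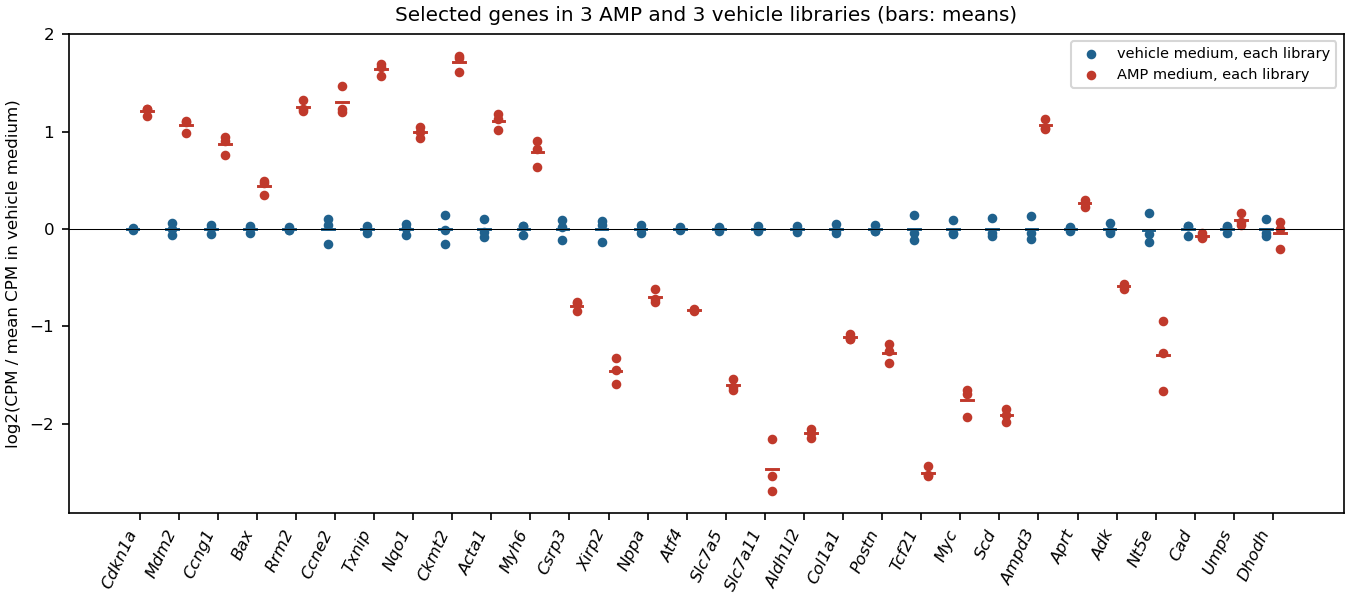
Level of 30 genes in each AMP (red) and vehicle (blue) library as log2 of CPM over the mean CPM of the 3 vehicle libraries, with bars for group means. The groups lie apart for the genes from Cdkn1a to Nt5e, and overlap for Cad and Dhodh.

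Targets of p53 rose in the myocyte cultures. Of 36 targets tested, 23 were higher and 6 lower, with a median log2 fold change of 0.40. Cdkn1a stood at 565, 565 and 538 CPM in AMP and 239, 242 and 241 CPM in vehicle libraries, so every AMP library was above every vehicle library (log2 fold change 1.21 ± 0.041, adjusted p = 6.7e-27). Mdm2 was at 160, 161 and 148 CPM against 78.0, 71.4 and 74.7 CPM (1.06 ± 0.047, adjusted p = 8e-23). The cyclin G gene Ccng1, at 1845, 1795 and 1629 CPM against 988, 925 and 964 CPM, rose by 0.87. The kinase Dyrk3 (2.01), the autophagy and p53 cofactor Tp53inp1 (1.46) and the ectodysplasin receptor Eda2r (1.27) had the largest changes. Phlda3, an inhibitor of Akt, rose by 0.91, the exonuclease Aen by 0.89 and the glycolysis regulator Tigar by 0.57. Against these, the tetraspanin Cd82 (-0.97), the kinase Plk3 (-0.66) and Pmaip1 (-0.55), which encodes the BH3-only protein NOXA, fell.

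Genes of the apoptosis machinery moved in both directions, 12 higher and 7 lower of 34, that is 35.3% and 20.6%, together near the background share. The pore-forming Bax stood at 96.8, 97.8 and 88.8 CPM in AMP and 70.0, 67.7 and 71.0 CPM in vehicle libraries, with no overlap (log2 fold change 0.44 ± 0.051, adjusted p = 5.5e-10). The death receptor Fas (1.01) and the nuclease Endog (0.85) rose, and so did the survival genes Bcl2l1 (0.42) and Xiap (0.48). The necroptosis effector Mlkl (-0.91), the initiator caspase Casp8 (-0.70) and the death receptor Tnfrsf1a (-0.49) fell. The call of Casp8 was lost without AMP replicate 3 (log2 fold change -0.57, adjusted p = 0.052) and without AMP replicate 2.

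Genes of DNA replication rose beside the p53 targets. Of 59 tested, 44 were higher and 3 lower, with a median of 0.46. Cyclin E2 (Ccne2), which drives entry into S phase, was at 32.1, 26.8 and 27.3 CPM in AMP and 12, 12.5 and 10.4 CPM in vehicle libraries (log2 fold change 1.30 ± 0.096, adjusted p = 1.3e-15). The ribonucleotide reductase subunit Rrm2 was at 107, 108 and 116 CPM against 45.9, 46.8 and 46.1 CPM (1.25 ± 0.052, adjusted p = 6.1e-24). E2f2 (1.05), the flap endonuclease Fen1 (1.02) and the polymerase clamp Pcna (0.68) rose too. The members that fell were the checkpoint kinase Chek1 (-0.72), the primase subunit Prim2 (-0.40) and the polymerase subunit Pola1 (-0.33). Genes of G2 and mitosis were less uniform, 31 higher and 7 lower of 70. Pbk (1.07), the cohesin factor Cdca5 (1.07) and separase (Espl1, 0.96) rose, while cyclin B1 (Ccnb1, -0.58), the kinase Plk1 (-0.57) and the motor Kif15 (-0.59) fell.

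Among the genes that handle AMP, adenosine and adenine, that of the ectoenzyme CD73 was lower in AMP medium. This gene, Nt5e, was at 5.66, 4.49 and 3.44 CPM in AMP and 10.5, 9.92 and 12.2 CPM in vehicle libraries, lower in each AMP library (log2 fold change -1.26 ± 0.18, adjusted p = 2.1e-07). Adenosine kinase (Adk) was at 34.5, 35.3 and 35.9 CPM against 51.5, 55.1 and 52.3 CPM (-0.59 ± 0.065, adjusted p = 1.9e-10), and adenosine deaminase (Ada) fell as well (-0.54 ± 0.15, adjusted p = 0.0017). Aprt, the enzyme that uses adenine, was at 100, 106 and 104 CPM against 87.2, 84.8 and 86.5 CPM and rose slightly (0.26 ± 0.048, adjusted p = 9.6e-06). Enpp1 was lower, with overlapping groups, by a log2 fold change of -0.18 ± 0.063 (adjusted p = 0.015), a call that was lost without AMP replicate 1 or without vehicle replicate 1. Mtap, which frees adenine in methionine salvage (-0.12, adjusted p = 0.22), and the transporter Slc29a1 (0.10, adjusted p = 0.42) did not pass the test. Of the adenosine receptors, Adora1 was at 15.7, 14.1 and 13.1 CPM against 16.5, 15.6 and 16.7 CPM (-0.18 ± 0.099, adjusted p = 0.11), and Adora2a and Adora2b were under 1 CPM in all 6 libraries, where a difference was not detectable at this depth (adjusted p = 0.91 and 0.073). In the AMP deaminase family Ampd3 rose from 16.4, 17.2 and 19.4 CPM to 36.4, 38.6 and 36.1 CPM (1.07 ± 0.08, adjusted p = 2.3e-15) and Ampd2 by 0.31. Among receptors for extracellular ATP, P2ry2 (-1.15) and P2rx4 (-0.70) fell. In the Entpd and Enpp gene families, whose members do not all act on ATP, Entpd3 (-2.30) fell, and Entpd5 (0.67) and Enpp5 (0.73) rose. Over the whole list of adenine nucleotide and adenosine signalling 7 of 35 were higher and 12 lower (20.0% and 34.3%), beside 29.2% and 28.0% over all genes tested. In purine synthesis, salvage and breakdown these were 10 and 12 of 34 (29.4% and 35.3%), near the background shares, with the guanine deaminase Gda (2.02) the largest rise.

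The 3 genes whose enzymes make UMP, the parent pyrimidine nucleotide, did not pass the test. Cad, which carries the opening 3 activities of the pathway, was at 114, 111 and 110 CPM in AMP and 112, 120 and 120 CPM in vehicle libraries, overlapping groups (log2 fold change -0.069 ± 0.049, adjusted p = 0.23). Dhodh, the mitochondrial dihydroorotate dehydrogenase, was at 16.1, 15.3 and 13.3 CPM against 16.4, 14.6 and 14.9 CPM (-0.039 ± 0.10, adjusted p = 0.77). Umps, which forms UMP from orotate and PRPP, was at 55.1, 60.0 and 56.2 CPM against 54.4, 54.0 and 51.9 CPM (0.096 ± 0.059, adjusted p = 0.16). Deoxycytidine kinase (Dck) rose by 1.45 ± 0.13 (adjusted p = 2e-12) and thymidylate synthase (Tyms) by 0.89, while uridine phosphorylase (Upp1, -0.67) and uridine-cytidine kinase (Uck2, -0.39) fell. In all 11 of 30 genes of pyrimidine synthesis and salvage were higher and 4 lower.

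Targets of ATF4, the transcription factor of the integrated stress response that supplies amino acids and one-carbon units, fell nearly as a whole. Of 39 genes 36 were lower and 1, Gdf15, was higher, with a median of -0.67. Atf4 itself was at 286, 288 and 291 CPM in AMP and 508, 513 and 520 CPM in vehicle libraries (log2 fold change -0.83 ± 0.039, adjusted p = 3.1e-22). The cystine transporter Slc7a11 was at 5.99, 8.65 and 6.66 CPM against 38.4, 39.5 and 38.0 CPM (-2.44 ± 0.10, adjusted p = 1.5e-23). The mitochondrial folate enzyme Aldh1l2 was at 19.5, 18.4 and 19.0 CPM against 79.7, 81.3 and 83.4 CPM (-2.10 ± 0.068, adjusted p = 9.2e-28). Every AMP library lay below every vehicle library for these genes. The amino acid transporter Slc7a5 (-1.61), the serine synthesis genes Phgdh (-1.11) and Psat1 (-1.13), Mthfd2 (-1.22), asparagine synthetase (Asns, -0.65) and the pseudokinase Trib3 (-1.63) fell too. Gdf15, a stress cytokine that p53 also drives, rose from 73.2, 69.0 and 90.7 CPM to 106, 121 and 112 CPM.

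Genes of protein folding in the endoplasmic reticulum and of ribosome production fell with them. Of 35 folding genes 31 were lower and 2 higher (median -0.41). The chaperone Hspa5 was at 750, 752 and 762 CPM in AMP and 1159, 1145 and 1143 CPM in vehicle libraries (log2 fold change -0.61 ± 0.036, adjusted p = 1.3e-18). The translocon subunit Sec61b (-1.06) and Selenos (-1.0) had the largest falls, and the oxidase Ero1a rose (0.74). Of 55 ribosome biogenesis genes 44 were lower and 4 higher (median -0.36). Myc, which drives this program, was at 14.9, 17.6 and 18.1 CPM against 55.3, 54.8 and 60.7 CPM (-1.75 ± 0.081, adjusted p = 2.3e-22), with no overlap. The nucleolar genes Npm1 (-0.65) and Fbl (-0.57) and the polymerase I factor Taf1d (-1.02) fell, and Nop10 rose (0.55).

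Extracellular matrix and TGF-β genes had the lowest medians of the programs described here. Of 59 matrix genes 43 were lower and 3 higher, 18 of them lower by at least 2-fold, with a median of -0.75. Type I collagen Col1a1 was at 7400, 7433 and 7662 CPM in AMP and 15735, 16790 and 16152 CPM in vehicle libraries (log2 fold change -1.11 ± 0.039, adjusted p = 1.2e-26). Periostin (Postn, -1.27), tenascin C (Tnc, -1.54), versican (Vcan, -1.52) and Col14a1 (-1.57) fell too. The inhibitors of matrix proteases Timp1 (0.37) and Timp2 (0.13) and the protease Mmp2 (0.25) rose slightly. Of 41 TGF-β and BMP genes 34 were lower and 1, Gdf15, was higher. Among the ligands Tgfb3 (-1.62), Tgfb1 (-0.94), Bmp4 (-1.45) and Inhba (-1.38) fell, among the receptors Tgfbr2 (-0.65) and Acvr1 (-0.96). Of the targets, Id3 fell (-1.87). The BMP antagonist Grem1 was at 1.12, 0.595 and 1.68 CPM against 6.12, 5.65 and 5.55 CPM (-2.35 ± 0.26).

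Fibroblast markers moved with these lists in part. Their summed level was 11570 to 12370 CPM in AMP and 24810 to 26200 CPM in vehicle libraries, most of it collagen. Of 11 markers 5 fell, all by at least 2-fold, and 2 rose (Dpt, 0.36, and Thy1, 0.60). The 5 were Col1a1 and Postn, already given among the matrix genes, the collagen Col3a1 (-1.09), the receptor Pdgfra (-1.20) and Tcf21. Without AMP replicate 3 these counts were 6 and 1, since Dpt lost its call (0.27, adjusted p = 0.072) and Fbln1 gained one (-0.45, adjusted p = 0.003). Dpt also lost its call without vehicle replicate 1. Decorin (Dcn), another defining marker, was at 72.1, 74.6 and 69.1 CPM against 55.6, 66.1 and 68.8 CPM and did not pass the test (adjusted p = 0.24). The part of the fibroblast content in the fall of matrix genes was not tested, and in such bulk libraries fewer cells of a type and less RNA per cell cannot be told apart. Of 8 epicardial markers 6 fell and the other 2 did not pass the test, with a summed level of 243 to 266 CPM against 412 to 478 CPM. Without AMP replicate 3 the counts were 0 higher and 6 lower. The 2 others were Upk3b, with 1287, 1167 and 1114 counts in AMP and 923, 1005 and 986 in vehicle libraries, and Krt19, with 79, 65 and 59 against 19, 40 and 52. Their AMP values lay above every vehicle value, and with only the 6 libraries in the fit 2 markers were higher and 6 lower. The retinoic acid enzyme Aldh1a2 had the largest fall (-2.45). Endothelial markers summed to 155 to 241 CPM against 259 to 318 CPM. Of 11 tested, 4 were higher and 3 lower, and 2 and 3 without AMP replicate 3, with a median of 0.097 in place of 0.59. Egfl7 rose by 0.59 with this library (adjusted p = 0.0038) and was at 0.37 without it (adjusted p = 0.093). Cdh5 rose by 1.51 with this library and was at 0.71 without it (edgeR adjusted p = 0.22). Its call was also lost without any one vehicle library. Tie1 rose by 1.97 with AMP replicate 3 (edgeR adjusted p = 0.0094) and by 1.09 without it (adjusted p = 0.011). The call of Tie1 was lost with only the 6 libraries in the fit (adjusted p = 0.091). Kdr rose (0.70), and Tek (-0.97), Flt1 (-1.43) and Eng (-1.02) fell either way. Smooth muscle and pericyte markers were 1 higher and 5 lower of 12, with a sum of 2915 to 3299 CPM against 3886 to 3899 CPM. Without AMP replicate 3 these were 0 and 6, with a median of -0.32 in place of -0.11. Abcc9 (0.14, adjusted p = 0.021) lost its call (0.073, adjusted p = 0.26) and Mylk (-0.62, adjusted p = 0.068) gained one (-0.97, adjusted p = 0.0042). Without AMP replicate 1 the counts were 2 and 4, without AMP replicate 2 they were 3 and 4, and without vehicle replicate 2 they were 0 and 4. Of the 4 macrophage markers tested 3 rose, and the 4 summed to 9.74 to 12.3 CPM against 4.26 to 5.36 CPM. The remaining one, Mrc1, did not pass the test (0.155, edgeR adjusted p = 0.765). The receptor Csf1r rose from 0.619, 0.276 and 0.837 CPM to 3.69, 4.76 and 4.91 CPM (2.95 ± 0.30), and Cd68 (0.68, adjusted p = 0.027) and Lyz2 (0.66, adjusted p = 0.033) rose with it. Without vehicle replicate 3 the count was 1 of 4, and without AMP replicate 3 Lyz2 lost its call (0.53, adjusted p = 0.13), as it did with DESeq2. The other 8 macrophage markers were too low to test. Of these, Ptprc, the leukocyte marker CD45, had 8, 8 and 8 counts in AMP and 4, 4 and 3 in vehicle libraries. The rest, among them Adgre1, C1qa, Fcgr1a, Cx3cr1 and Aif1, had at most 3 counts in any of the 6 libraries. Schwann cell markers were too few to describe, with 2 tested.

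Sarcomere genes moved in both directions. Of 35 genes 10 were higher and 14 lower (28.6% and 40.0%), beside 29.2% and 28.0% over all genes tested. Skeletal α-actin (Acta1) was at 2324, 2607 and 2508 CPM in AMP and 1123, 1084 and 1232 CPM in vehicle libraries, without overlap (log2 fold change 1.11 ± 0.047, adjusted p = 4.2e-20). The fast myosin Myh6 was at 3196, 3019 and 2648 CPM against 1740, 1742 and 1632 CPM (0.79 ± 0.07, adjusted p = 2.1e-07), and Myh7b rose by 0.97. The slow myosin Myh7 (-0.10, adjusted p = 0.18) and the cardiac actin Actc1 (-0.02, adjusted p = 0.67) did not pass the test. The actin binding gene Xirp2 was at 401, 441 and 480 CPM against 1274, 1101 and 1244 CPM (-1.45 ± 0.12, adjusted p = 7.8e-07), and the mechanosensor gene Csrp3 fell as well (-0.79). Actin and myosin genes have close copies, and how the authors' counting shared reads between them is not given in the sources used here.

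The natriuretic peptide genes, markers of myocyte stretch and growth, fell. Nppa was at 2361, 2412 and 2590 CPM in AMP and 3974, 3876 and 4084 CPM in vehicle libraries (log2 fold change -0.70 ± 0.039, adjusted p = 2.1e-19) and Nppb at 492, 576 and 609 CPM against 871, 801 and 885 CPM (-0.61 ± 0.092, adjusted p = 0.00016). Over the hypertrophy list 8 of 25 were higher, Acta1 and Mef2c (0.36) among them, and 7 lower. Genes of ion channels and calcium handling were more often higher (21 of 48) than lower (9). The calcium sensor S100a1 (0.96), the calcium binding gene Hrc (0.94), the β1-adrenergic receptor Adrb1 (0.74), phospholamban (Pln, 0.55) and the calcium pump Atp2a2 (0.46) rose. The pacemaker channel Hcn4 (-0.77), the potassium channel Kcnd3 (-1.03), the sodium-calcium exchanger Slc8a1 (-0.43) and the calcium channel Cacna1d (-1.30) fell, Cacna1d from a low level and with its call lost without AMP replicate 1 and without vehicle replicate 2 or 3.

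Genes of oxidative phosphorylation rose by small steps. Of 70 nuclear genes of oxidative phosphorylation 59 were higher and the other 11 did not pass the test, with a median of 0.27 and a highest change of 0.53 (Ndufa8, a subunit of complex I). Of the 13 genes on the mitochondrial genome 10 were higher, among them Mt-nd1 at 10649, 10128 and 10008 CPM in AMP and 7047, 6981 and 6977 CPM in vehicle libraries (log2 fold change 0.55 ± 0.037, adjusted p = 5.4e-17). The largest change among the 13 (1.20) was in a gene that did not pass the test. The share of counts from the mitochondrial genome, given above, was higher in the AMP libraries, and its part in the nuclear list was not tested. Of 49 genes of fatty acid oxidation 31 were higher and 8 lower, with rises of the coactivator Ppargc1a (0.69), the pyruvate dehydrogenase kinase Pdk4 (0.91) and the carnitine transferase Cpt1b (0.67). Txnip, a brake on glucose uptake, was at 526, 535 and 494 CPM against 166, 161 and 170 CPM (1.65 ± 0.041, adjusted p = 1.3e-31), and no AMP library overlapped a vehicle library. The mitochondrial creatine kinase Ckmt2 was at 18.6, 18.9 and 16.8 CPM against 4.95, 5.44 and 6.09 CPM (1.72 ± 0.13, adjusted p = 2.4e-15), and the creatine transporter Slc6a8 (0.84) and the kinase Ckb (0.63) rose too. Prkag2, a regulatory subunit of AMP-activated kinase, fell (-0.92). In glycolysis and the hypoxia response 20 of 45 were higher and 10 lower. The muscle isoforms Eno3 (0.92) and Pgam2 (0.93) rose, and the glucose transporter Slc2a1 (-0.43) fell.

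Antioxidant genes under NRF2 were 24 higher and 5 lower of 37. By at least 2-fold 1 was higher and 1 lower, and the lowest log2 fold change of the list was -2.44. The epoxide hydrolase Ephx1 was at 84.1, 81.6 and 83.0 CPM in AMP and 34.8, 29.2 and 31.4 CPM in vehicle libraries (log2 fold change 1.38 ± 0.061, adjusted p = 6.1e-23), and the quinone reductase Nqo1 rose by 0.99. Genes of cholesterol and fatty acid synthesis were 25 lower and 5 higher of 41. The desaturase Scd was at 155, 170 and 163 CPM against 579, 595 and 660 CPM (-1.91 ± 0.051, adjusted p = 7.4e-25). The desaturases Fads1 (-0.98) and Fads2 (-0.81) also fell.

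Genes of the rapid response to growth factors and cAMP were mostly lower, 20 of 33 immediate early genes and 17 of 27 targets of cAMP and CREB, with 4 and 5 higher. Egr1 was at 42.7, 52.1 and 60.5 CPM in AMP and 107, 95.8 and 116 CPM in vehicle libraries (log2 fold change -1.04 ± 0.11, adjusted p = 3.4e-06). Klf2 (-1.83), the phosphatase Dusp4 (-0.97) and, among cAMP targets, Nr4a2 (-1.03), Rgs2 (-1.15), Bdnf (-1.44) and Pde10a (-1.93) fell, while Nr4a1 rose (0.42). In the IGF and insulin signalling list, which also holds other growth factor genes, 8 of 32 were higher and 14 lower. Its largest falls were those of Egfr at 8.23, 8.19 and 10.3 CPM against 34.3, 30.8 and 33.4 CPM (-1.88 ± 0.096), Igf1 at -1.42 and Nrg1 at -1.32 on the log2 scale, and its largest rise was that of Igfbp3 (0.83).

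Interferon-stimulated genes were 17 higher and 3 lower of 33, 11 of them higher by at least 2-fold. The guanylate binding gene Gbp2 was at 27.9, 28.7 and 28.3 CPM in AMP and 6.39, 5.10 and 7.00 CPM in vehicle libraries, all AMP values above all vehicle values (log2 fold change 2.20 ± 0.11, adjusted p = 5.8e-21). Irf7, which amplifies the interferon response, rose by 1.75, and Gbp4 (3.84) and Mx2 (3.38), members of families with close copies, rose from under 1 CPM. Isg15 (0.24, adjusted p = 0.48) did not pass the test, and Ifit2 (-1.39) and Bst2 (-1.27) fell. Of 39 inflammatory genes 18 were higher, with the chemokine Cxcl10 (1.15) and the cytokine Lif (1.41). Another 8 were lower, with Ptx3 and the interleukin receptor Il1r1 (-1.27). A further 20 of the 59 measured were too low to test, and without the filter on low counts 18 were higher and 11 lower of 59.

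Genes of autophagy and lysosomes were 21 higher and 5 lower of 40, with Gpnmb (0.88) and Sqstm1 (0.65) the best known rises. Heat shock genes were 13 and 6 of 26, where Hspa1b rose from low levels (2.16) and the abundant Hspa8 (-0.27) and Hsp90ab1 (-0.31) fell. Clock genes were 9 and 4 of 21, with Cry1 (0.59) and Per3 (0.51) higher and Arntl (-0.30) lower, and the lower ones were 2 when AMP replicate 2, AMP replicate 3 or vehicle replicate 1 was left out. Glucocorticoid-responsive genes were 11 and 7 of 28, with the atrophy ligase Trim63 rising (0.78) and Sgk1 falling (-0.76). In NAD metabolism (11 and 5 of 25) Naprt rose (1.12) and the NAD-cleaving Sarm1 fell (-2.38), with 3 lower genes when AMP replicate 1, AMP replicate 2 or vehicle replicate 1 was left out. In methionine salvage and polyamine genes the counts were 9 and 10 of 30 (30.0% and 33.3%), near the background shares. In energy sensing they were 10 and 2 of 25, and in Wnt and Notch signalling 5 and 11 of 31. Notch1 rose (1.32) while Notch2 (-0.94) and the Wnt feedback gene Axin2 (-1.05) fell.

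**Figure D3:**
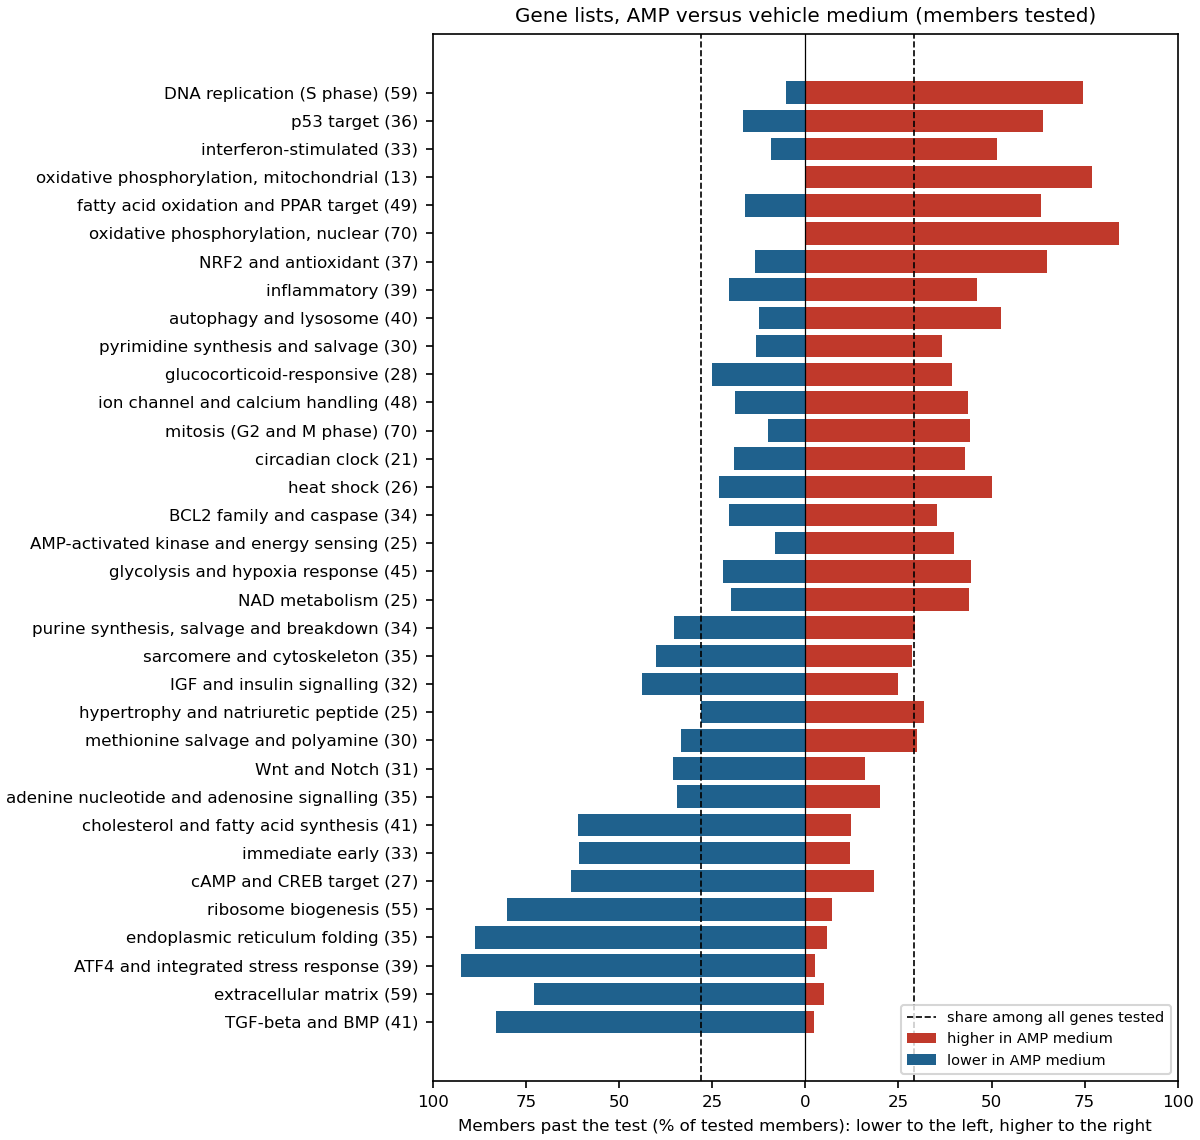
Share of the tested members of each gene list (number in brackets) that were higher (red, right) or lower (blue, left) in AMP medium at an edgeR adjusted p under 0.05, ordered by median. Dashed lines mark the shares over all genes tested, 29.2% and 28.0%; ATF4 targets reach 92.3% lower and nuclear oxidative phosphorylation genes 84.3% higher.

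AMP medium was also compared with ENPP1+ATP medium, in which ATP and the enzyme that makes AMP from it had been given to the conditioning myocytes, and with ATP medium. All comparisons of a medium with vehicle share the 3 vehicle libraries, so those values are set side by side only, and the tests below are of the difference between 2 media. AMP and ENPP1+ATP media differed in 1300 genes (9.66%), 782 higher in AMP (5.81%) and 518 lower (3.85%), and 65 of them (0.483%) by at least 2-fold. AMP and ATP media differed in 4455 genes (33.1%), with 17.0% higher and 16.1% lower in AMP, and 326 (2.42%) by at least 2-fold. Medians against vehicle in AMP, ENPP1+ATP and ATP medium were 0.40, 0.36 and 0.59 for p53 targets and -0.67, -0.66 and -0.31 for ATF4 targets. Of 36 p53 targets 17 were lower and 5 higher in AMP than in ATP medium, and 7 were higher and 0 lower in AMP than in ENPP1+ATP medium. ATF4 targets were lower in AMP than in ATP medium in 31 of 39 genes and higher in 1. Against ENPP1+ATP medium 2 were lower and 3 higher.

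Contractile genes set the media apart. Of 35 sarcomere genes 26 were higher in AMP than in ENPP1+ATP medium and 28 higher than in ATP medium. The cardiomyocyte markers, most of them also sarcomere genes, moved the same way. Of 11, 8 were higher and 0 lower against ENPP1+ATP medium (median 0.23), and all 11 were higher against ATP medium (median 0.67). Of 11 fibroblast markers 3 were higher and 0 lower against ENPP1+ATP medium, and 7 higher and 1 lower against ATP medium. The part of cell content in these differences was not tested. Acta1 was at 2480 ± 144 CPM (SD, n = 3) in AMP, 1482 ± 78.0 CPM in ENPP1+ATP and 1149 ± 50.4 CPM in ATP medium, and the difference of AMP from ENPP1+ATP medium was 0.74 ± 0.047 on the log2 scale (adjusted p = 1.9e-13). The calcium release channel Ryr2 was 1.37 higher (log2, adjusted p = 8.1e-07) and Actc1 1.33 higher (adjusted p = 3.8e-29) in AMP than in ATP medium. All 13 mitochondrial genes were higher in AMP than in ATP medium, by a median of 0.51. Of 41 lipid synthesis genes 30 were higher in AMP than in ENPP1+ATP medium, as were 30 of 59 matrix genes and 33 of 70 mitotic genes and 24 of 59 replication genes. The reverse held for 8 of 33 immediate early genes, led by Fosb (-1.76, adjusted p = 1.5e-10). The prostaglandin synthase Ptgs2 (-1.56, adjusted p = 7.4e-09) and the chemokine Ccl2 (-1.43, adjusted p = 2.6e-07) were lower in AMP than in ENPP1+ATP medium.

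**Figure D4:**
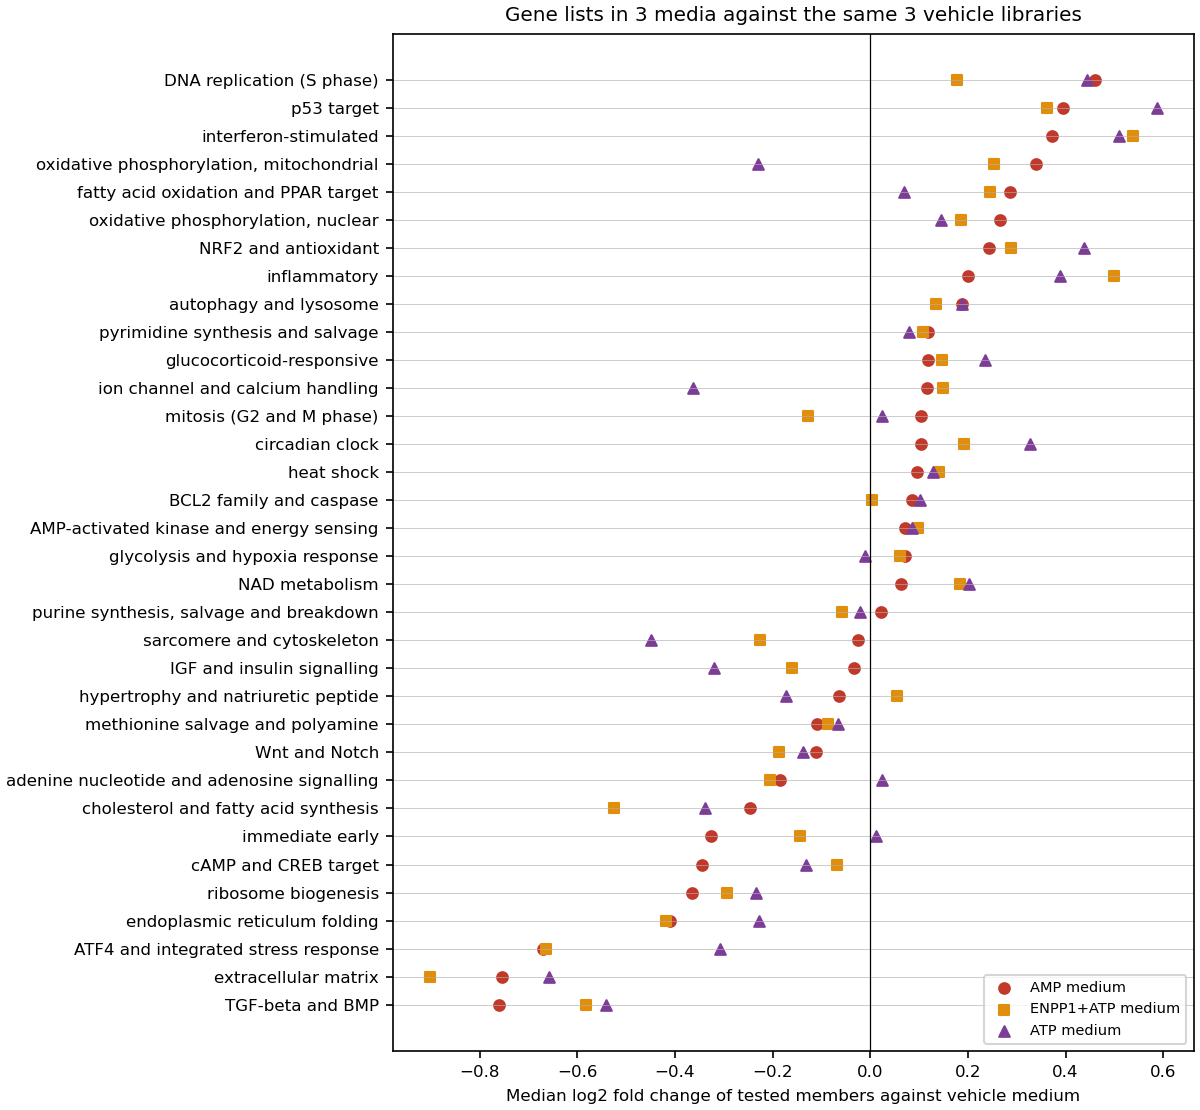
Median log2 fold change of each gene list against vehicle medium in AMP (circles), ENPP1+ATP (squares) and ATP medium (triangles), all set against the same 3 vehicle libraries. The mitochondrial genes lie at 0.34 in AMP and -0.23 in ATP medium.

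The effect of AMP medium was then compared with its effect at 24 h in immortalized cardiac fibroblasts (CFs) of wild type C57BL/6 mice, with 2 AMP and 2 vehicle libraries. Both effects were estimated in a joint edgeR fit of the NRVM and CF libraries over 13189 shared gene symbols, and the difference between them was tested. The cell types differ in species, and the CFs are an immortalized population and not primary cells. The NRVM libraries also hold fibroblast RNA, given above, so the NRVM value is that of a mixed culture. The effects differed in 6395 genes (48.5%), 3138 (23.8%) with the NRVM value above the CF value and 3257 (24.7%) below. Of 35 p53 targets in this fit 23 were below and 5 above, with medians of 0.37 in NRVMs and 1.19 in CFs. Cdkn1a changed by 1.20 in NRVMs and 2.37 in CFs (difference -1.17 ± 0.13, adjusted p = 9.3e-08) and Mdm2 by 1.05 and 2.35 (-1.30 ± 0.08, adjusted p = 2.3e-17). The widest gaps in the list were those of the death genes Pmaip1, at -0.56 in NRVMs and 3.63 in CFs, and Perp, at -0.13 and 3.90. Fdxr (0.87 and 0.098), Tigar (0.56 and 0.13) and Dyrk3 (2.00 and 0.99) were among those with the larger rise in NRVMs.

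Other lists also differed. Of 33 immediate early genes 30 had the lower value in NRVMs, where the median was -0.34 against 1.22 in CFs. The same held for 56 of 67 mitotic genes (medians 0.082 and 0.83). The NRVM value was the higher in 44 of 59 nuclear oxidative phosphorylation genes (medians 0.27 and -0.12) and in 32 of 40 lipid synthesis genes (-0.25 and -0.89). Targets of ATF4 had a median of -0.68 in NRVMs and -0.29 in CFs, and of 40 genes 30 had the lower value in NRVMs and 2 the higher. Within CFs 28 of these 40 genes were lower in AMP medium, as were 30.8% of all genes. Of the pyrimidine synthesis genes, Cad was at -0.081 in NRVMs and 0.29 in CFs (difference -0.38 ± 0.078, adjusted p = 9.4e-05) and Dhodh at -0.051 and -0.60 (0.55 ± 0.16, adjusted p = 0.0035).

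**Figure D5:**
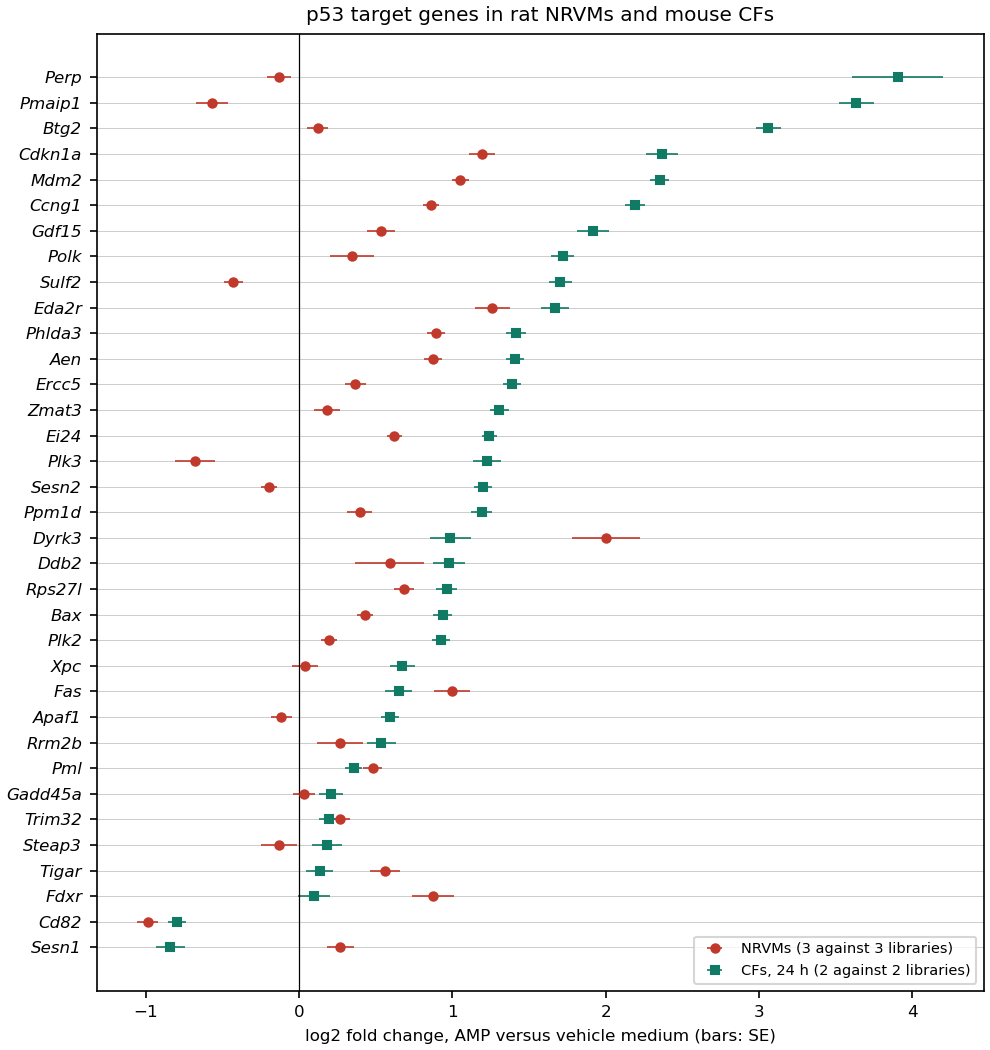
Log2 fold change with its SE for AMP against vehicle medium of the p53 targets in the joint fit, in rat NRVMs (red circles) and mouse CFs at 24 h (green squares), ordered by the CF value. Cdkn1a lies at 1.20 in NRVMs and 2.37 in CFs, and Pmaip1 at -0.56 and 3.63.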

How the data were processed

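The deposited counts are whole numbers of reads per gene and library that the authors made from total RNA. The submitters' processing notes name STAR 2.5.3a and the builds rn6 and mm10, while the counting program, its use of strand and its treatment of reads shared between near-identical genes (actins, Gbp and Mx genes, Hspa1b) are not given in the sources used here. Columns were matched to samples by name, and 0 columns were left unused.

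Genes were kept by filterByExpr (13461 of 20158), counts were scaled by TMM, and media were compared in 1 model over all 15 NRVM libraries with edgeR 4.0.16 (robust quasi-likelihood test, R 4.3.3, limma 3.58.1). The biological coefficient of variation was 0.0499. P-values were adjusted by Benjamini-Hochberg over all genes tested, with a threshold of 0.05. CPM refer to TMM-scaled library sizes, and the SE of a fold change was derived from it and the test's F statistic. The difference between cell types was fitted on the 14291 symbols found in both tables, 13189 of them tested. The design follows no stated test of the study. Replicates of a group differed by more than counting noise, with a chi-square per gene of 2.46 to 7.27. The study's statistics section calls its n biological replicates without naming these libraries, and no label says that they were separate cultures, so p-values measure only the spread between these libraries, which may be technical.

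Genes named by rule were the 10 largest rises and falls without overlap whose log2 CPM averaged 2 or more, up to 3 rises and 3 falls per list, and fixed genes of AMP handling, p53 and pyrimidine synthesis. Other named genes were chosen after their values were seen. The members and lists were chosen with earlier results of these data known. Bbc3, Pecam1, Ttn and Col1a2 were not analysed here, and a few other genes are not reported here. Alternatives were RLE scaling, no filter on low counts, DESeq2 1.42.0, only the libraries compared, a replicate block and leaving out each replicate. Tables were handled with Python 3.11.15 and pandas 2.3.3, and plots drawn with matplotlib 3.10.9.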

Additional observations from a re-analysis of the deposited data

Results flagged for a closer look

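The effect of AMP medium differed between NRVMs and CFs at 24 h in 6395 of 13189 genes by the edgeR interaction term. The log2 fold change in NRVMs was below that in CFs, by the differences that follow, for the p53 targets Cdkn1a (-1.169), Mdm2 (-1.298), Ccng1 (-1.33), Bax (-0.5059), Pmaip1 (-4.197) and Eda2r (-0.41), for the phosphatase gene Ptprv (-1.117) and for the pyrimidine gene Cad (-0.3762). It was above that in CFs for the death receptor Fas (0.3487) and for Dhodh (0.5513). The call of Fas was lost under all alternatives but DESeq2 and leaving out NRVM vehicle replicate 1, that of Eda2r without 5 single libraries and that of Ptprv without either of 2. Pmaip1 fell in NRVMs and rose in CFs. The cell types differ in species, in culture and in the number of libraries per group, and the NRVM cultures also hold nonmyocytes. The cell type and these cannot be told apart.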

How the results depend on the processing

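The numbers of genes that differed, in either direction and at 2-fold or more, stayed within 1.5 times under all 192 combinations of count and alternative. AMP against vehicle medium gave 7297 calls with DESeq2, 7283 of them among the 7703, and 7520 with only the 6 libraries. Leaving out a single library gave 7078 to 7435 calls there, 941 to 1217 between AMP and ENPP1+ATP medium, 3643 to 4122 between AMP and ATP medium and 5635 to 6155 between cell types, where a group of CFs with 1 library left is assumed to vary like the other groups. No gene called between AMP and vehicle medium changed sign under any alternative run, but of the genes called different between cell types 22 did so without CF AMP replicate 2, 1 without NRVM AMP replicate 2 and 2 without NRVM AMP replicate 3. Among the genes named in the text for a change between AMP and vehicle medium, Abcc9, Cacna1d, Casp8, Cd68, Cdh5, Dpt, Egfl7, Enpp1 and Lyz2 lost their call without some single library, Cdh5 also without the filter, with only the 6 libraries and with the block, Lyz2 also with DESeq2. Tie1 lost its call with only the 6 libraries. Among the named genes that did not pass, Adora1 gained a call without AMP replicate 1 (log2 fold change -0.26). Fbln1 and Mylk gained one without AMP replicate 3, Mylk also with DESeq2. Rgs5 (2.33, edgeR adjusted p = 0.074) gained a call with DESeq2 and without AMP replicate 1 or 2. Without AMP replicate 3 it was at 0.67 (edgeR adjusted p = 0.42). Dcn (adjusted p = 0.021), Myh7 (adjusted p = 0.031), Krt19 (adjusted p = 0.022) and Upk3b (adjusted p = 0.0036) gained one with only the 6 libraries by edgeR, Myh7 and Krt19 also without the filter and Krt19 without vehicle replicate 3. List medians and counts moved in 63 combinations and stayed in 1290, and the cause was not tested.

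The replicate numbers did not pair the samples: deviations of AMP and vehicle libraries with the same number correlated at 0.00484, -0.0474 and -0.00861. With the replicate number as a block there were 7703 calls between AMP and vehicle medium, 7651 of them shared with the fit without it, 1372 between AMP and ENPP1+ATP medium, 4490 between AMP and ATP medium and 6432 between cell types. Genes under 1 CPM are limited by depth.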
